A study of Mus musculus with 4 samples.

Results

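Cadherins are calcium-dependent adhesion proteins whose genes are here the neuronal type I members Cdh2 and Cdh4, the type II members Cdh6 to Cdh12 and the lipid-anchored Cdh13. These 10 genes were chosen by symbol, and each had a row in all 4 count tables, among 31735 gene rows that the tables shared. The tables come from translating ribosome affinity purification (TRAP) of the rostral pons, the front part of the brainstem region below the cerebellum. The mice were untreated adult controls of 1 line, Cbln2-TRAP NIDA172 (Cbln2-EGFP/Rpl10a), which carries ribosomal protein L10a tagged with EGFP and is named for the cerebellin gene Cbln2. Ribosomes were captured with antibodies against EGFP, and all 4 libraries are immunopurified RNA of this single group, titled replicates 1 to 4. Every cell that makes the tagged protein contributes to such a sample. Input RNA was not analysed here, so the values below are levels within the purified RNA. Whether each replicate is 1 mouse or a pool is not stated in the labels, and the spread between them may be partly technical.

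Classical cadherins bind the same or a related cadherin on the neighbouring cell through repeated extracellular domains, and their cytoplasmic tail holds p120-type catenins and beta-catenin, which alpha-catenin links to actin. Type I members share a short histidine-alanine-valine motif in the outermost repeat that type II members lack, and several type II members bind one another. In the nervous system the combination of cadherins that a neuron makes is known to guide the sorting of neurons into nuclei and the choice of synaptic partners. Cdh13 has no such tail and is held in the membrane by a glycosylphosphatidylinositol anchor.

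The libraries held 12731825 to 21140265 gene counts. Expression is given as counts per 1000000 gene counts (CPM). A single count equalled between 0.0473 and 0.0785 CPM. The 95% exact Poisson interval of a member's count had a mean half-width of 3.13% to 58.9% of the value, and at low counts it reaches further up than down. It covers counting error only. The row Rn45s, named for the ribosomal RNA precursor, held 1.61% to 24.2% of the gene counts and takes that share from every other gene. All 6 neuronal marker genes exceeded 1 CPM in every library, with a sum of 10656 to 22781 CPM. Markers of other cells were present too, with sums of 446 to 2000 CPM for astrocytes, 413 to 2378 for oligodendrocytes and 179 to 1444 for cerebellar granule cells. Endothelial markers summed to 39.8 to 204 CPM, mural and leptomeningeal ones to 50.5 to 114, and microglial ones to 2.70 to 34.3. Oligodendrocyte precursor markers summed to 15 to 107 CPM, ependymal and choroid plexus ones to 3.26 to 129 (Folr1 at 0 throughout), and those of Purkinje cells and Bergmann glia to 673 to 2436. In such bulk samples fewer cells of a type and less RNA per cell cannot be told apart.

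All 10 cadherins reached 1 CPM in each of the 4 libraries, as did 33.5% of all gene rows. A level of 10 CPM in all 4 was reached by Cdh2, Cdh7, Cdh10, Cdh12 and Cdh13, which makes 5 of 10 members beside 20.3% of all rows. Together the members held 399, 449, 327 and 412 CPM in replicates 1 to 4 (397 ± 50.9, SD, n = 4). Between the lowest and the highest library single members differed by 1.65-fold (Cdh2) to 8.99-fold (Cdh9). With the Rn45s row left out of the totals the sum was 405, 456, 432 and 454 CPM.

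**Figure D1:**
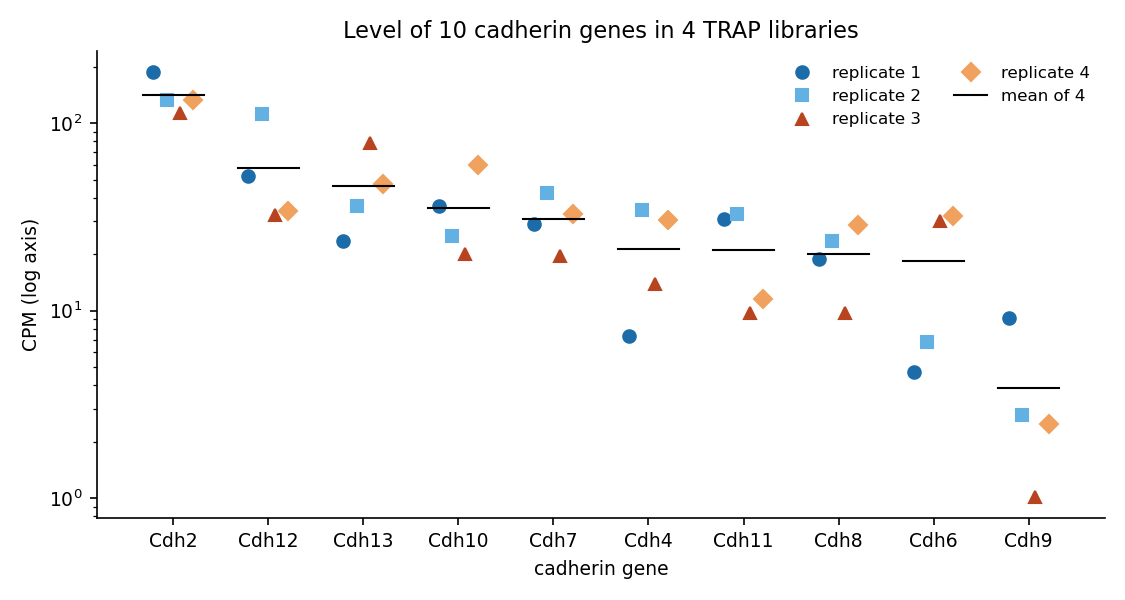
CPM of each cadherin (logarithmic vertical axis) in the 4 libraries, with the mean as a line and genes ordered by mean CPM. Cdh2 lies at 113 CPM or above throughout, while the points of Cdh6 fall into a low couple (4.73 and 6.81) and a high couple (30.1 and 31.9).

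Cdh2, which encodes N-cadherin, the principal classical cadherin of neurons and neural progenitors, had levels of 187, 133, 113 and 133 CPM (replicates 1 to 4). It had the highest CPM of the 10 in every library, and its mean was 142 ± 31.7 CPM (SD, n = 4). Its replicate spread was small, with an SD of log2 CPM of 0.30, at the 10.9th percentile of the 10632 genes that reached 1 CPM throughout, whose median SD was 0.67. Cdh4 encodes R-cadherin, the other type I member, first described in the retina. It was at 7.28, 34.2, 13.9 and 30.3 CPM (21.4 ± 12.9). Replicates 2 and 4 were high and replicates 1 and 3 low, so its levels did not follow the order in which the libraries are numbered.

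Among type II members Cdh12, also called brain cadherin or N-cadherin 2, had the highest mean. It was at 52.3, 112, 32.2 and 34.1 CPM (57.7 ± 37.4), with replicate 2 far above the others. Cdh10 was at 36.0, 25, 20.0 and 59.7 CPM (35.2 ± 17.7), with replicate 4 highest. Both Cdh10 and Cdh12 belong to the cadherins made mainly in brain. Cdh7 was the steadiest type II member, at 28.8, 42.4, 19.5 and 32.9 CPM (30.9 ± 9.49), with an SD of log2 CPM at the 26.7th percentile. Cdh8, known from circuits for vision and cold sensing, was at 18.8, 23.4, 9.74 and 28.6 CPM (20.1 ± 8.0), lowest in replicate 3.

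Cdh11, or OB-cadherin, is also strong in bone and connective tissue. It was at 30.7, 32.8, 9.74 and 11.5 CPM (21.2 ± 12.3), so replicates 1 and 2 lay near each other and well above replicates 3 and 4. Cdh6, or K-cadherin, known from kidney and from sets of brain nuclei, was at 4.73, 6.81, 30.1 and 31.9 CPM (18.4 ± 14.6), the opposite arrangement. Its SD of log2 CPM (1.37) was the highest of the members and lay at the 93.0th percentile of the genes detected throughout. Cdh9, a cadherin known from hippocampal mossy fibre synapses and retinal bipolar cells, was the lowest, at 9.18, 2.76, 1.02 and 2.48 CPM (3.86 ± 3.63). Its 13 counts in replicate 3 have an interval of 0.544 to 1.75 CPM, so it was present there but poorly measured, and without replicate 1, which had 194 counts, its mean was 2.09 ± 0.935 CPM. Cdh13, T-cadherin, which is also a receptor for adiponectin, was at 23.7, 36.0, 77.8 and 47.2 CPM (46.2 ± 23.2). Replicate 3 was the highest and replicate 1 the lowest.

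To set the genes beside each other, CPM were divided by the length of the union of exons in kilobases. Per kb, Cdh2 stood at 17.6 ± 3.93 (SD, n = 4), Cdh12 at 9.15 ± 5.93 and Cdh13 at 4.11 ± 2.07. There followed Cdh10 at 3.50 ± 1.76, Cdh7 at 3.08 ± 0.95, Cdh4 at 2.95 ± 1.78, Cdh8 at 2.60 ± 1.03, Cdh11 at 2.38 ± 1.38, Cdh6 at 2.04 ± 1.62 and Cdh9 at 1.09 ± 1.02. No neighbours in this order differed beyond their spread. Of the 9 neighbouring couples, 0 went one way in all 4 libraries and 0 had a mean log2 ratio over 2 SD. The exact sign-flip permutation test (two-sided, on log2 values with a pseudocount of 0.5 CPM per kb, adjusted over the 9 couples) gave 0.875 for each of them, and with 4 libraries the smallest unadjusted p is 0.13. The closest call was Cdh2 over Cdh12, with log2 ratios of 1.43, -0.10, 1.38 and 1.52 in replicates 1 to 4 (mean 1.06 ± 0.77, exact permutation p = 0.25).

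Cdh2 exceeded 8 of the other 9 members in all 4 libraries, by a mean of 4.15-fold over Cdh13 to 12.8-fold over Cdh9, and Cdh12 exceeded 6 of them. The pseudocount lowers these folds where a gene is low. Without it, an alternative added after seeing the data, they were 4.61-fold over Cdh13 and 21.6-fold over Cdh9. Of the 45 possible couples, 18 went one way in every library. A mean over 2 SD was reached by 11 of these, each with Cdh2 or Cdh12 as the higher gene. The length used matters here, since the exon unions of Cdh10 and Cdh13 measure 10.1 and 11.2 kb. That is about as long as 3 of their longest annotated protein-coding transcripts (3.41 and 3.79 kb). With this longest transcript as length, 31 of the 45 went one way. Cdh2 then exceeded all 9 others in every library, while Cdh12 exceeded 4 members instead of 6. Cdh13 came before Cdh12 on average (log2 ratio of Cdh12 to Cdh13 -0.38 ± 1.30, against 0.996 ± 1.25 per kb of union exon).

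Within the summed level per kb of the 10 genes, Cdh2 made up 46.3%, 28.9%, 37.1% and 33.8% in replicates 1 to 4. Cdh12 took 16.6%, 31.1%, 13.5% and 11.1%. It ranked second in replicate 1, first in replicate 2, where Cdh2 had its smallest share, and behind Cdh13 (replicate 3) or Cdh10 (replicate 4, 12.2%) in the others. Cdh13 took 4.21%, 5.60%, 18.3% and 8.63%, and Cdh6 1.05%, 1.32%, 8.79% and 7.25%. The sums of the 7 type II genes and of the type I genes did not differ beyond the spread. The log2 ratio of the type I sum to the type II sum was 0.03, -0.61, 0.09 and -0.20 (mean -0.18 ± 0.32, above 0 in 2 of 4 libraries, exact permutation p = 0.5). Cdh2 alone was below the type II sum in 4 of 4 libraries (mean log2 ratio -0.40 ± 0.43, exact permutation p = 0.13), a mean that is within 2 SD. With the longest transcript as length this ratio went one way in only 2 of 4 libraries.

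**Figure D2:**
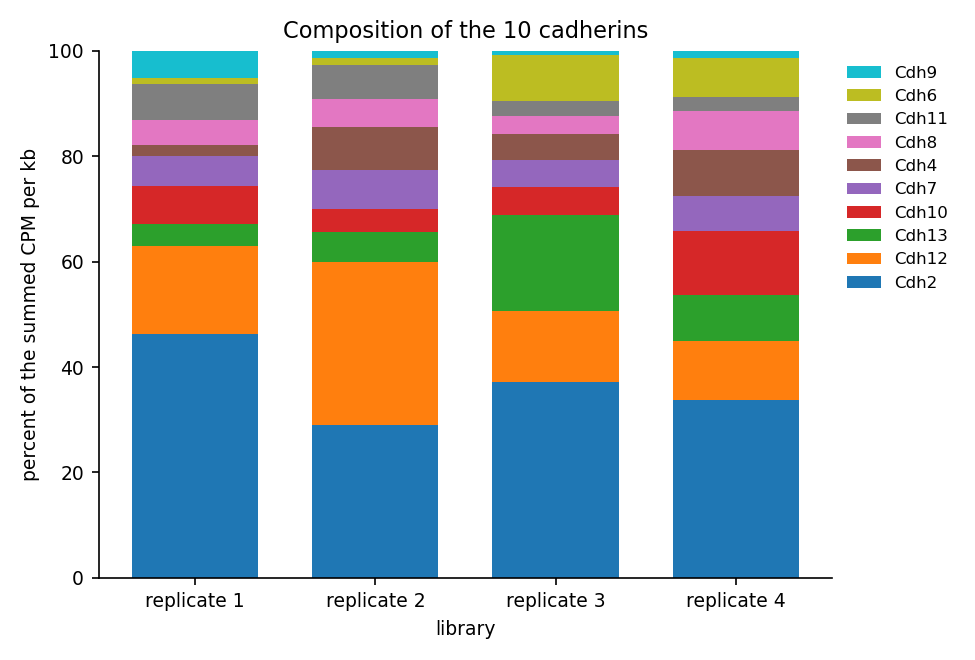
Share of each cadherin in the summed CPM per kb of exon, as stacked bars from 0 to 100%, 1 bar for each library. Cdh2 (bottom) covers 28.9% to 46.3%, and the Cdh6 segment covers 1.05% and 1.32% in replicates 1 and 2 but 8.79% and 7.25% in replicates 3 and 4.

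The type I and type II cadherins outside the 10 include genes of similar or higher level. Cdh18, the type II relative closest to Cdh12 on the chromosome, was at 111, 127, 62.8 and 95.2 CPM (99.1 ± 27.4) and exceeded Cdh12 per kb 2.52-fold in 4 of 4 libraries (log2 1.34 ± 0.51, exact permutation p = 0.13). Per kb it did not differ from Cdh2 beyond the spread (log2 ratio of Cdh18 to Cdh2 0.28 ± 0.34), and the sign turned to -0.54 without division by length. Cdh20 was at 52.0, 132, 20.3 and 54.9 CPM and exceeded Cdh7, its relative on the same chromosome, 3.95-fold per kb in 4 of 4 libraries (log2 1.98 ± 0.67). Cdh22 was lower, at 9.10 ± 2.54 CPM. Cdh5, the cadherin that defines endothelium, was at 2.93, 16.6, 5.18 and 0.392 CPM. Cdh19, known from the Schwann cell lineage, was at 0.757, 1.61, 0 and 3.13 CPM. For 0 counts the CPM of 3 counts is given as a limit, a fixed setting other than the Poisson interval above. In replicate 3 it is 0.236 CPM. The other type I genes were scarce, as none of Cdh1, Cdh3 and Cdh15 reached 1 CPM throughout. Cdh3 had 0 counts in all 4 libraries, where the limit of 3 counts is 0.142 to 0.236 CPM.

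**Figure D3:**
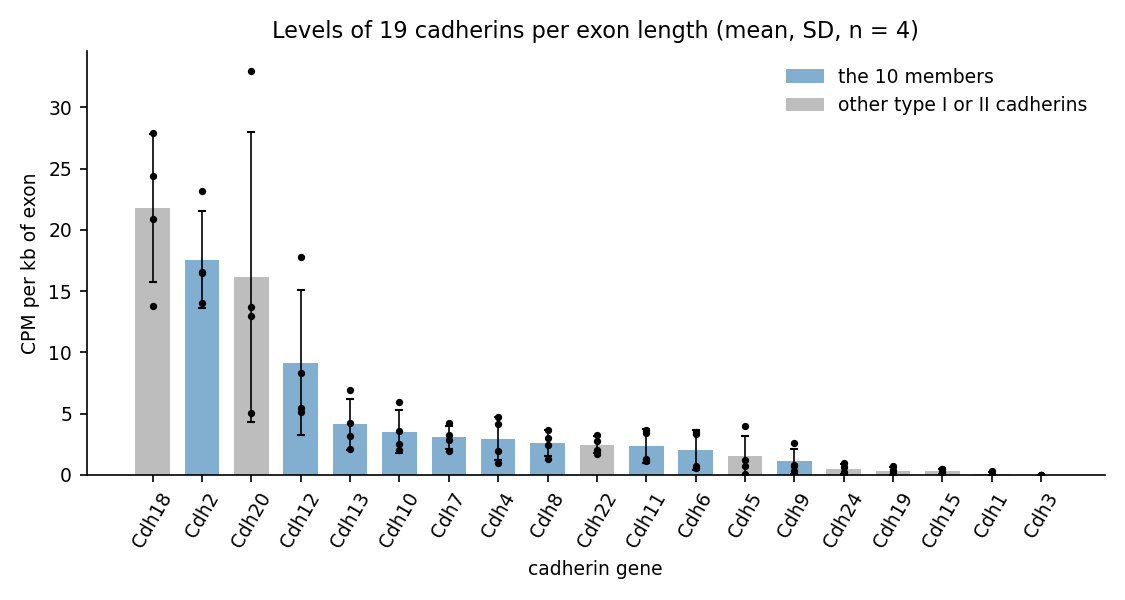
Mean CPM per kb of exon with SD (n = 4) for 19 cadherins, points for the libraries, the 10 members in blue and the others in grey. Cdh18 and Cdh20 stand beside Cdh2 (21.8, 16.2 and 17.6 on average), and the members from Cdh13 to Cdh9 form a shallow slope from 4.11 to 1.09.

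Most members lie in long stretches of chromosome shared with other cadherins. Positions are from GENCODE M21 on GRCm38, the assembly of mm10. On chromosome 15 the order is Cdh6 (13028701 to 13173675, minus strand), Cdh9 (16728756 to 16857094, plus), Cdh10 (18818947 to 19014236, plus), Cdh12 (20449265 to 21589533, plus) and Cdh18, with 0 other protein-coding genes annotated in the gaps of 959 to 3555 kb between them. On chromosome 8 the members are Cdh8 (99024471 to 99416471, minus), Cdh11 (102632095 to 102785642, minus) and Cdh13 (118283733 to 119324921, plus). The gap of 3216 kb between Cdh8 and Cdh11 likewise holds 0 protein-coding genes. Cdh5, Cdh3 and Cdh1 lie between Cdh11 and Cdh13. The gap of 1316 kb between Cdh11 and Cdh5 holds 0 protein-coding genes, and the later gaps hold some. Cdh7 is on chromosome 1 (109982431 to 110140157, plus), 748 kb from Cdh19 with 0 protein-coding genes between them. Cdh4 is on chromosome 2 (179442431 to 179899373, plus) and Cdh2 on chromosome 18 (16588877 to 16809246, minus). The spans run from 128 kb (Cdh9) to 1140 kb (Cdh12), of which exons cover 0.553% (Cdh12) to 6.36% (Cdh7).

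Per kb, Cdh12 exceeded Cdh9 by 6.14-fold in 4 of 4 libraries (log2 2.62 ± 0.98, exact permutation p = 0.13), and by 9.99-fold without the pseudocount. It exceeded Cdh6 in 4 of 4 as well, but by log2 ratios of 3.10 and 3.86 in replicates 1 and 2 and of 0.55 in both replicates 3 and 4. Cdh8 and Cdh11 were within their spread of each other (log2 0.17 ± 0.74). Since the strand setting of the counting is not given in the sources used here, reads of antisense genes could not be told apart. Such overlaps were short, 224 exon bases (6.33% of the exons of Cdh9) with the antisense gene Gm49127 and 23 bases of Cdh8 with Gm15679. The exons of Cdh12 share 198 bases with Gm49685 on the same strand.

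RefSeq promoter entries (GRCm38.p6) were taken for 6 of the 10 genes, Cdh6, Cdh7, Cdh8, Cdh9, Cdh10 and Cdh12. Entries of Cdh2 were not looked for, so its absence here does not mean that it has none. For Cdh6 and Cdh8 the RefSeq start coincides with the outermost GENCODE start, so the 250 bases before it lie upstream of all annotated exons of the gene. The stretches of Cdh6 and Cdh8 are printed because the other entries of the 6 genes start elsewhere. Capitals mark CG dinucleotides, the sites of methylation in vertebrate DNA. The Cdh6 stretch is at chr15:13173676-13173925 and the Cdh8 stretch at chr8:99416472-99416721, both on the minus strand and written 5′ to 3′.
Cdh6: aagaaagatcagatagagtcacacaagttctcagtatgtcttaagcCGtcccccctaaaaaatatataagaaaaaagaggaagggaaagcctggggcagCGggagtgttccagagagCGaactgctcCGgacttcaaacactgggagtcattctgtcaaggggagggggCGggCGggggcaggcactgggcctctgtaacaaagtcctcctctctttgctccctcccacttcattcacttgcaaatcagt
Cdh8: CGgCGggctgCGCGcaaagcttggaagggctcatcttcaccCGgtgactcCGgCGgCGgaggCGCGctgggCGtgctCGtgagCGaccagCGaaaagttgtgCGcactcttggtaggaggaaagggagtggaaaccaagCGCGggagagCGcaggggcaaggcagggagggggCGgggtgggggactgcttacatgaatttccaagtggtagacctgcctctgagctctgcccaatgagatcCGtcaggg
The Cdh6 stretch holds 6 CG, a number that 50.4% of the 32851 promoter entries of the table reach or exceed, and the Cdh8 stretch holds 20, which 17.9% reach or exceed. Their GC content was 51.2% and 64.4%, beside a median of 52.4%. The letters TATAAA were in neither stretch on either strand, and 12.4% of all entries hold them. These counts describe the sequence only, and no measurement here bears on its activity.

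By the numbers in their descriptions the libraries form a first pair (1666 and 1667, which are replicates 1 and 2) and a second pair (2469 and 2470, which are replicates 3 and 4). No label names a batch, and replicate 4 carries the replicate label of replicate 3 in its description. The comparison of the pairs therefore asks how far replicates of 1 group differ, with 2 libraries on each side. The CPM of 6 members did not overlap between the pairs, beside 47.5% of the 13905 genes tested. Cdh6 and Cdh13 were higher in the second pair (23.7% of all genes), and Cdh2, Cdh9, Cdh11 and Cdh12 lower (23.8%). Without the Rn45s row in the totals Cdh2 overlapped as well. The share over all genes at those totals is not given here, so no count is set beside it.

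Of the 10 members, all of which passed the filter on low counts, 0 differed between the pairs by edgeR's quasi-likelihood test (adjusted p under 0.05 over all genes), beside 1.27% of all genes. At an unadjusted p under 0.05 there were 3 (Cdh6, Cdh11 and Cdh12), beside 16.8% of all genes. DESeq2 called 1, Cdh6, beside 9.60% of the genes to which it gave an adjusted p. The median log2 difference of the members was -0.27, beside -0.03 over all genes. With 10 genes these counts are small, and nothing particular to the members is read from them.

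Cdh6 had the widest difference. Its mean of 5.77 CPM in replicates 1 and 2 stood against 31.0 CPM in replicates 3 and 4, a log2 difference of 2.44 (SE 0.78, edgeR adjusted p = 0.136, DESeq2 adjusted p = 0.01). Within the pairs its libraries were 1.44-fold and 1.06-fold apart. Those of Cdh11 were 1.07-fold and 1.18-fold apart, and they lay the other way round, with means of 31.7 and 10.6 CPM (log2 -1.57, SE 0.70, edgeR adjusted p = 0.278). Cdh12 had means of 82.2 and 33.2 CPM (log2 -1.30, SE 0.52, edgeR adjusted p = 0.224). Over 9 alternative settings its log2 difference ranged from -1.77, without replicate 1, to -0.61. Without replicate 1 the first pair is replicate 2 alone, the highest library of Cdh12 (112 CPM). Cdh13 had means of 29.8 and 62.5 CPM (log2 1.11, SE 0.55, edgeR adjusted p = 0.338).

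**Figure D4:**
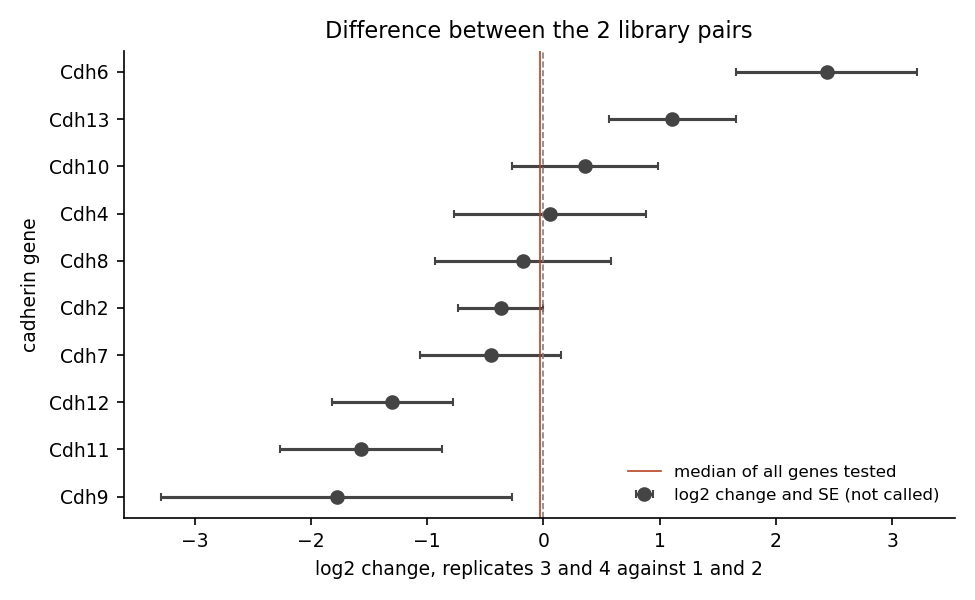
Log2 difference of each cadherin between the second and the first library pair from edgeR, and the median of all genes as a vertical line at -0.03. Bars are the SE, derived from the F statistic of the test. Cdh6 stands highest at 2.44 and Cdh9 lowest at -1.78 with the widest SE (1.51), and none passed the threshold.

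The remaining members differed less or less reliably. Cdh9 had a log2 difference of -1.78 with an SE of 1.51, and it rests largely on replicate 1. Cdh2 (-0.37, SE 0.37), Cdh7 (-0.45, SE 0.61), Cdh8 (-0.18, SE 0.75), Cdh10 (0.35, SE 0.63) and Cdh4 (0.06, SE 0.83) were within about 1 SE of 0. For Cdh4, Cdh8 and Cdh10 the sign turned when single libraries were left out, and Cdh4 ranged from -0.68 without replicate 1 to 1.60 without replicate 2.

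The order of Cdh11 and Cdh6 per kb turned between the pairs. Their log2 ratio, with the pseudocount, was 1.94 and 1.74 in replicates 1 and 2 and -1.27 and -1.17 in replicates 3 and 4. Without the pseudocount, where a ratio does not depend on the library total, it was 2.72, 2.29, -1.61 and -1.45. The mean over the 4 libraries was 0.31 ± 1.77 with the pseudocount and 0.49 ± 2.34 without it, so the difference over the group was within the spread. Cdh12 to Cdh13 moved in the same sense, at 1.76, 2.30, -0.41 and 0.33. Several other sums also differed between the pairs. The Rn45s row held 1.68% and 1.61% of gene counts in the first pair and 24.2% and 9.29% in the second. The neuronal markers (6 of 6 throughout) summed to 22781 and 20329 CPM, then 10694 and 10656. Snap25 made up most of these sums (18577, 15908, 8131 and 6936 CPM), while Syt1, Rbfox3 and Nefl overlapped between the pairs. The markers of Purkinje cells and Bergmann glia (4 of 5) summed to 1429 and 2436, then 717 and 673 CPM. There Itpr1 and Car8 fell (edgeR adjusted p = 0.0332 and 0.0127), while Calb1 (mean 162, then 233 CPM) and Pcp2 (2.34, then 8.64) lay higher in the second pair without passing the test. Granule cell markers (6 of 6 at 1 CPM or more throughout) summed to 591 and 1444 CPM in the first pair and to 179 and 294 in the second. Of these, Neurod1 and Cbln3 passed the test, both lower in the second pair (edgeR adjusted p = 0.0127 and 0.0238). The mural and leptomeningeal markers (2 of 8 throughout, with Kcnj8, Col1a2 and Lum at 0 in some library) summed to 83.1 and 50.5, then 114 and 111 CPM. Rgs5 made up most of these sums (62.0, 32.5, 81.4 and 86.2 CPM). Only Col1a1 (mean 2.57, then 0.725 CPM) and Col1a2 (4.10, then 1.99) had lower means in the second pair. Endothelial markers (5 of 6 throughout, Cldn5 at 0 in replicate 4) summed to 139 and 204, then 93.7 and 39.8 CPM. Of these, Flt1, Pecam1, Tek and Slco1a4 had lower means in the second pair. Ly6c1 (log2 difference 0.74, SE 1.22) and Cldn5 (1.87, SE 2.38) had higher means there. None of the 6 endothelial markers passed the test. The part of these differences in the cadherin values was not tested.

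**Figure D5:**
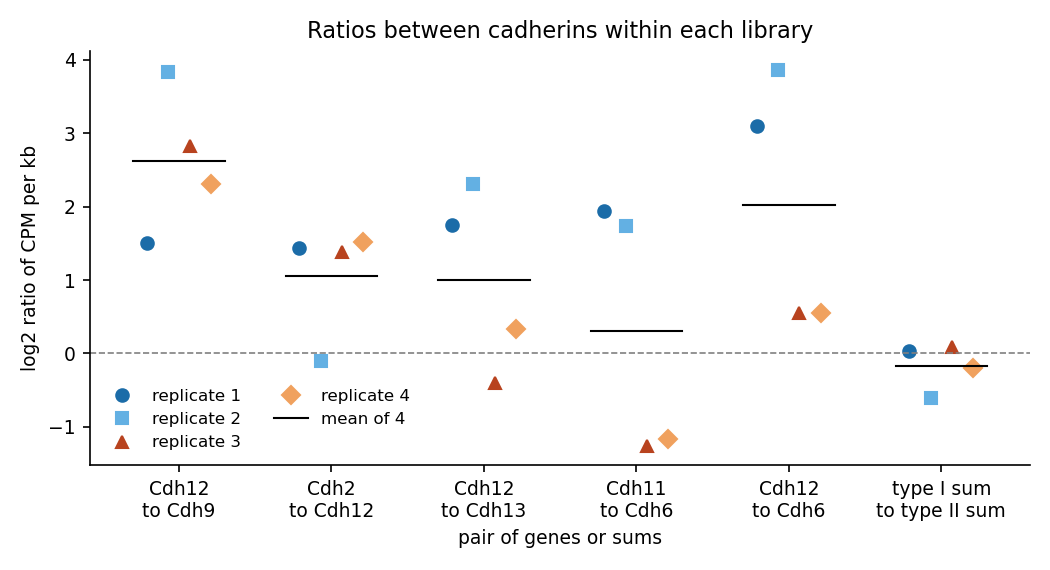
Log2 ratios of CPM per kb of exon between cadherins, or between their type I and type II sums, in the 4 libraries, with the mean as a line and 0 (equal levels) dashed. Cdh12 lies above Cdh9 in every library, whereas Cdh11 to Cdh6 is at 1.94 and 1.74 in replicates 1 and 2 and at -1.27 and -1.17 in replicates 3 and 4.

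The cytoplasmic partners of cadherins ranged widely, from 0.172 CPM per kb (Ctnna3) to 79.0 (Pkp4) on average. Of 13 catenins and associated genes, 12 reached 1 CPM throughout, beside 33.5% of all gene rows. The exception was the alpha-catenin gene Ctnna3, which is named after its values were seen. Per kb the highest were the p120 relatives Pkp4 (79.0 ± 33.6) and Ctnnd2, encoding the neuronal delta-catenin (72.3 ± 43.9), followed by Ctnnb1, encoding beta-catenin (51.0 ± 5.68), and Ctnna2, the neuronal alpha-catenin (13.2 ± 3.22). Ctnnb1 was at 233, 302, 252 and 273 CPM, and with a log2 difference of -0.02 between the pairs its pairs overlapped. Ctnnd2 was at 1196, 1077, 377 and 335 CPM. It fell in the second pair by 1.65 on the log2 scale (SE 0.31, edgeR adjusted p = 0.0278), and was the only 1 of the 13 to pass (0 higher, 1 lower, median log2 difference -0.34), beside 1.27% of all genes. At an unadjusted edgeR p under 0.05 there were 4 of the 13, each lower in the second pair, beside 16.8% of all genes.

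Of the other lists, 6 of 7 genes for the cleavage of cadherins reached 1 CPM throughout, with the gamma-secretase subunit Psenen at 25.7 ± 11.7 CPM per kb and the sheddase Adam10 at 9.78 ± 4.69. Among nectins, adhesion partners of cadherins at junctions, 2 of 4 did. All 10 delta protocadherins, which lack the catenin-binding tail, reached 1 CPM throughout, led by Pcdh9 (40.3 ± 14.9 CPM per kb) and Pcdh7 (32.2 ± 16.3). Of 14 further superfamily genes with a row 11 did, with the calsyntenin gene Clstn1 highest at 56.1 ± 16.2 CPM per kb. Beside these counts, 33.5% of all gene rows reached 1 CPM throughout. In none of these lists did a gene pass the test between the pairs, with 7, 3, 10 and 12 genes tested and 0, 1, 1 and 4 at an unadjusted p under 0.05. Over all genes the shares were 1.27% with adjustment and 16.8% without. Their median log2 differences were 0.54, -0.13, -0.25 and -0.30.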

How the data were processed

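Ribosome-bound RNA of 4 libraries was measured by sequencing. The authors deposited raw read counts per gene symbol, made with STAR 2.0.0e and HTSeq on mm10 per the submitters' processing notes. The annotation, strand setting and counting options are not given in the sources used here. The 5 HTSeq summary rows were left out (no feature 24.0% to 30.1%, ambiguous 1.25% to 2.07% and not unique 28.6% to 37.2% of each table's total), as was the row unknown (0 counts). CPM used the gene total of each library's own table. Rows in all 4 tables (31735) were analysed, and 796 and 922 rows were in only the first or second pair of tables. Exon lengths were found by symbol in GENCODE M21 for 23086 rows, including the 10 members. Library pairs were compared by the quasi-likelihood test of edgeR 4.0.16 with TMM scaling, the filterByExpr filter and Benjamini-Hochberg adjustment, which was tested on simulated data, and with DESeq2 1.42.0. The SE of an edgeR log2 difference was derived as its absolute value divided by the square root of the test's F statistic. Gene ratios had an exact sign-flip permutation test. The rule for named genes took all members, up to 4 genes of each list with the highest mean CPM per kb, each list gene that passed the pair test, Cdh5, Cdh18, Cdh19, Cdh20 and Cdh22, and the summed CPM of each marker list. Marker genes at 0, those that passed and those that differ from their sum were named after their values were seen. Members, lists and tests were chosen with earlier results of these data known.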

Additional observations from a re-analysis of the deposited data

How the results depend on the processing

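No paired analysis was possible because the 4 libraries form 1 group. Of 434 recomputed values 397 kept their direction and side of the threshold, or moved less than the spread. Many of these are levels in CPM, which have no direction or threshold and could only be judged against the spread. The genes called between the pairs numbered 1386 by DESeq2, 875 with no filter, 268 with a filter of 5 CPM, and 389 to 699 without 1 replicate, against 176. Of the cadherins 1 was called by DESeq2 (Cdh6) and 0 to 1 without 1 replicate (Cdh12). Neighbouring couples with 1 direction in every library numbered 2 with the longest transcript, 2 with no division by length and 0 to 3 without 1 replicate, against 0. Reversed log2 ratios were, with the longest transcript, -0.38 for Cdh12 to Cdh13 and -0.44 for Cdh4 to Cdh8, and with no division by length, -0.050 for Cdh4 to Cdh8 and -0.54 for Cdh18 to Cdh2. Leaving out 1 replicate, the mean log2 ratio ranged from -0.26 (without replicate 3) to 0.48 for Cdh13 to Cdh10, from -0.12 (without 4) to 0.36 for Cdh10 to Cdh7 and from -0.15 (without 1) to 0.35 for Cdh7 to Cdh4. It ranged from -0.12 (without 2, and -0.08 without 3) to 0.39 for Cdh4 to Cdh8, from -0.18 (without 4) to 0.37 for Cdh8 to Cdh11 and from -0.23 (without 1, and -0.16 without 2) to 0.84 for Cdh11 to Cdh6. Log2 differences between the pairs ranged from -0.68 (without 1, and -0.47 without 4) to 1.60 for Cdh4. They ranged from -0.99 to 0.33 (without 3, and 0.02 without 2) for Cdh8, and from -0.48 (without 4) to 0.87 for Cdh10. Where 1 replicate is left out, the lone library of a pair is assumed to vary like the other pair. The cause was not tested. Values with no pseudocount, for couples that are not neighbours, for ranges that do not overlap and for Ctnnd2 were chosen after seeing the data. At 5 CPM 8 members were detected throughout, all but Cdh6 and Cdh9. The share of all rows at 5 CPM is not given here, so nothing is read from that count. Of all rows, 33.5% reached 1 CPM throughout and 20.3% reached 10 CPM. Depth limits Cdh9 most.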
